A study of Mus musculus with 6 samples.

Results

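Messenger RNA of 10 genes that switch off mitogen-activated protein (MAP) kinase signalling was compared between 2 derivatives of RAW264.7, a line of mouse macrophage-like cells transformed by Abelson murine leukaemia virus. The genes were the MAP kinase phosphatases Dusp1, Dusp2, Dusp4, Dusp5, Dusp6, Dusp10 and Dusp16, and the feedback inhibitors Spry1, Spry2 and Spred1. They were taken by symbol from a table of 23154 genes, and all 10 symbols were found in it. One stable line carried the doxycycline-inducible construct pINDUCER20b-HA-NUR77, which encodes HA-tagged NUR77, the nuclear receptor made from Nr4a1. The control line carried pINDUCER20b-GFP. Both lines received 1 µg/mL doxycycline for 18 hours, starting 24 hours after seeding, with 3 dishes per line, and the labels name no inflammatory stimulus. Each group is a single stable line, so differences between the lines and effects of the transgene cannot be told apart, and p-values measure the spread between dishes.

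MAP kinases become active when a threonine and a tyrosine in their activation loop are phosphorylated, and dual-specificity phosphatases of the DUSP family remove both phosphates. Many of these phosphatases are themselves transcribed in response to MAP kinase activity, which makes them negative feedback regulators. Sprouty and Spred proteins act further upstream, where they restrain the Ras-ERK branch at the membrane. In macrophages the DUSP genes are best known for limiting the p38, JNK and ERK activity that drives cytokine production.

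Levels are given as normalized reads, that is, reads per 10000000 reads counted on genes. Recovered depth was 11199468 to 15929487 reads per library, so that 1 read was worth 0.6278 to 0.8929 normalized reads. Nr4a1 itself stood at 170, 148 and 161 normalized reads in the GFP dishes against 288, 314 and 297 in the NUR77 dishes (log2 fold change 0.90, SE 0.08, limma adjusted p = 5.5e-08); reads of the transgene and of the endogenous gene cannot be told apart. All 10 macrophage markers examined had reads, with a summed level of 77200 to 78700 with GFP and 29400 to 30900 with NUR77. Lyz2, Mpeg1 and Cd68 carried most of the sum with GFP, but not with NUR77, where Itgam was the largest single marker. Itgam went the other way from the sum, from 4180 to 4290 with GFP to 9200 to 9980 with NUR77. Fcgr1 did so as well (575 to 602 and 640 to 712). Ptprc overlapped between the lines (4500 to 4670 and 4570 to 4780). NUR77 replicate 1 stood apart: 9 skeletal muscle genes (the list without Tnni2, which differed between the lines and was set aside after its values were seen) summed to 193 normalized reads there and to 41.2 to 49.5 in the other 5 libraries. With Tnni2, the 10 muscle genes summed to 381 to 434 in the GFP line, and to 289, 106 and 115 in the NUR77 replicates. The 6 fibroblast genes, of which Pdgfra had no read, summed to 113 in that library, to 41.8 and 29.4 in the other NUR77 libraries and to 17.6 to 22.3 in the GFP line. T cell genes (Cd3d, Cd3e and Cd3g at 0 throughout) summed to 117 to 123 with GFP and 67.9 to 77.2 with NUR77, mostly Lck. The 4 epithelial genes summed to at most 0.697 in GFP dishes and 0.893 in NUR77 dishes. Dendritic cell genes (Flt3 at 0) summed to 174 to 222 with GFP and 54.5 to 59.9 with NUR77. Itgax (median 159 with GFP and 12.5 with NUR77) made up most of the sum with GFP. Zbtb46, which was higher with NUR77 (10.0 to 18.1 against 36.6 to 48.5), made up most of it there. Cd79b, a B cell gene, stood at 0 to 0.697 with GFP and at 12.5 to 28.6 with NUR77, and the B cell gene Ms4a1 was at 0 throughout. The part of these markers in the results was not tested.

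All 7 phosphatase genes rose in the NUR77 line, by 1.41-fold for Dusp2 up to 7.06-fold for Dusp5. Neither Spry2 nor Spred1 passed the test, and Spry1 had no read. A gene was tested where its mean over the 6 libraries was 10 or more normalized reads, and called where the Benjamini-Hochberg adjusted p of limma, computed over all 11201 tested genes, was under 0.05. Of the 10 members 9 were tested, each with a mean above the filter in both lines. By this rule 7 of 9 were called higher and 0 lower, and all 9 estimates were above 0. Of all tested genes 38.4% were called higher, 28.3% lower and 66.7% in either direction. Dusp1, Dusp5, Dusp6 and Dusp10 had a called log2 fold change of 1 or more, 4 of 9 members, as had 7.68% of all tested genes. The members' median log2 fold change was 0.90, against 0.06 over all tested genes. Without NUR77 replicate 1 the 7 phosphatase genes were again called higher, with log2 fold changes from 0.56 to 2.77.

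**Figure D1:**
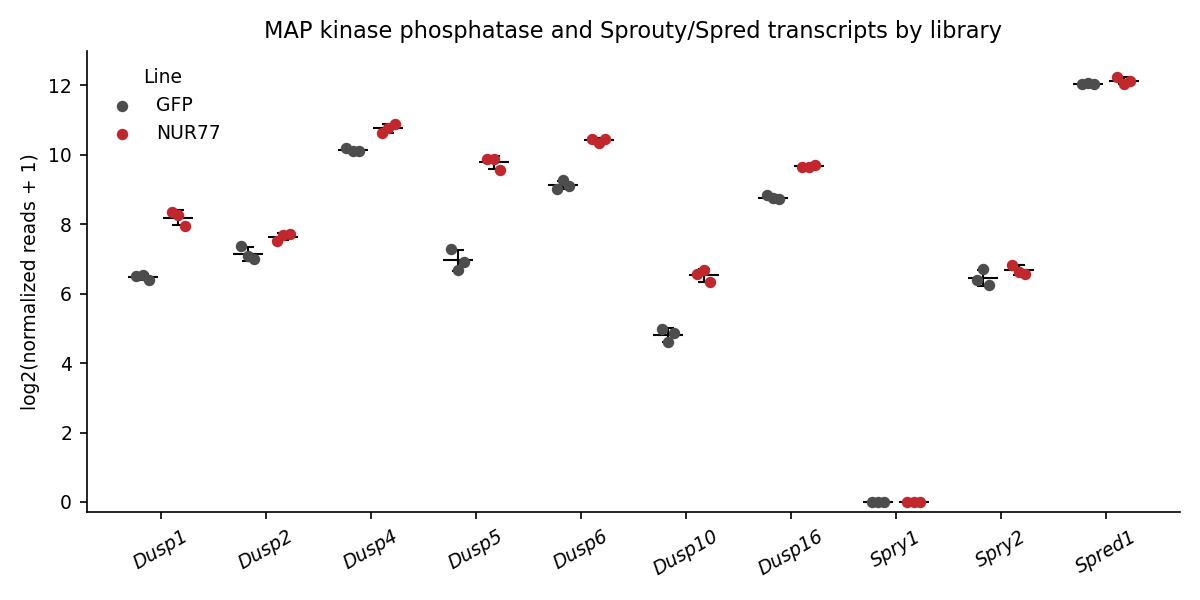
Level of each member on the log2(normalized reads + 1) scale in the 3 GFP and 3 NUR77 libraries; points are libraries, and the bar and whiskers give the mean and SD on that scale. In the 7 Dusp genes every NUR77 point lies above every GFP point, while the points of Spry2 and Spred1 overlap and Spry1 lies at 0.

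Promoter sequence is shown for the members in which a searched motif was found, since several of these genes are classical serum- and cAMP-responsive genes. RefSeq promoter windows (GRCm38.p6, 250 bases before to 50 bases after the start) were present for 9 of the 10 members. Dusp4 had no window and was not searched. Each was searched on both strands for 5 motifs: the NBRE to which NUR77 binds as a monomer (AAAGGTCA), the cAMP response element (CRE, TGACGTCA), the AP-1 site (TGANTCA), the CArG box bound by serum response factor, and the kB site of NF-kB. Matches were found in 2 member windows. The Dusp1 window held a CRE from 143 to 136 bases before the start, a motif present in 1.79% of all 32851 promoter windows. The Dusp5 window held 2 adjoining CArG boxes, from 82 to 73 and from 72 to 63 bases before the start, and 1.63% of all windows held at least 1. The NBRE was in 1.51% of all windows, the AP-1 site in 7.81% and the kB site in 4.51%, and these letters were in no member window. The motifs were chosen with the results known. The bases from 250 to 51 before the start are printed 5′ to 3′ on the strand of the gene, with the matches in capitals; the first lies at chr17:26508523-26508722 on the minus strand and the second at chr19:53528895-53529094 on the plus strand.
Dusp1: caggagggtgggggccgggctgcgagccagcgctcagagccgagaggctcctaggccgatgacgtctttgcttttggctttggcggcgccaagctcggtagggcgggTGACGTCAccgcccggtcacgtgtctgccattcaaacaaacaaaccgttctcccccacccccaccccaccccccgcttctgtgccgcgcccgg
Dusp5: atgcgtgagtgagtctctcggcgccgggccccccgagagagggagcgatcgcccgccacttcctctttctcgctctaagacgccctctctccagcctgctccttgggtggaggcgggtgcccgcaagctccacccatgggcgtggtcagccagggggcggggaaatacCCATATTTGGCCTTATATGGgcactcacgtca

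Among the phosphatases found in the nucleus, Dusp5 changed most. Dusp5 (ENSMUSG00000034765, chromosome 19, 53529109 to 53542431, plus strand, mm10) encodes a nuclear phosphatase selective for ERK. Its values were 155, 102 and 119 normalized reads in the GFP dishes against 943, 944 and 762 in the NUR77 dishes. The lowest NUR77 library was far above the highest GFP library, with averages of 125 ± 27.0 and 883 ± 105 (SD, n = 3 per line). The log2 fold change was 2.82 (SE 0.14, limma adjusted p = 5.6e-08), which placed Dusp5 at rank 214 of 11201 tested genes from the highest. Of the 24 nearest tested neighbours of Dusp5 on chromosome 19, 17 rose and 5 fell, with a median log2 fold change of 0.48. For comparison, 38.4% of all tested genes rose and 28.3% fell, with a median of 0.06. The neighbours of the other 9 members had medians between -0.04 and 0.24. The part of this neighbourhood in the Dusp5 value was not tested. An antisense gene, AC137853.2, shares 547 exonic bases with Dusp5. Whether the counting used strand is not stated, so reads of such partners cannot be told apart.

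Dusp1 (ENSMUSG00000024190, chromosome 17, 26505590 to 26562128, minus strand) encodes a nuclear phosphatase that acts on p38, JNK and ERK and is a known brake on cytokine production in macrophages. The RefSeq start used for its promoter window lies inside this annotated span, which reaches further upstream. Its values were 90.6, 92.3 and 82.4 normalized reads in the GFP dishes against 328, 306 and 248 in the NUR77 dishes. The NUR77 values were spread more widely than the GFP values but did not overlap them. The log2 fold change was 1.71 (SE 0.11, limma adjusted p = 3.7e-10), and the ratio of the means was 3.33. Ergic1, on the opposite strand, shares 11 exonic bases with Dusp1.

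Dusp4 (ENSMUSG00000031530, chromosome 8, 34807297 to 34819894, plus strand), a nuclear phosphatase induced by ERK signalling, was already abundant in the control line. It stood at 1180, 1114 and 1101 normalized reads in the GFP dishes against 1593, 1740 and 1878 in the NUR77 dishes. All NUR77 values were above all GFP values, with a log2 fold change of 0.61 (SE 0.06, limma adjusted p = 1.4e-07). Dusp2 (ENSMUSG00000027368, chromosome 2, 127336159 to 127338376, plus strand) encodes the nuclear phosphatase PAC-1 of activated leukocytes. Its values were 165, 134 and 127 in the GFP dishes against 182, 207 and 209 in the NUR77 dishes. These ranges came close to each other without overlapping, and the rise was the smallest of the 7 (log2 fold change 0.49, SE 0.11, limma adjusted p = 0.00064).

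Dusp6 (ENSMUSG00000019960, chromosome 10, 99263231 to 99267489, plus strand) encodes the cytoplasmic phosphatase that is selective for ERK. Its values were 522, 617 and 545 normalized reads in the GFP dishes against 1410, 1292 and 1396 in the NUR77 dishes. Each NUR77 library held more than any GFP library, and the ratio of the means was 2.43 (limma adjusted p = 2.3e-11 for a log2 fold change of 1.28, SE 0.07).

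The phosphatases that prefer the stress kinases JNK and p38 rose as well. Dusp10 (ENSMUSG00000039384, chromosome 1, 184013302 to 184075636, plus strand) was the least abundant phosphatase member in normalized reads, at 30.7, 23.2 and 28.1 in the GFP dishes against 94.6, 102 and 79.6 in the NUR77 dishes. Its values did not overlap between the lines (log2 fold change 1.72, SE 0.16, limma adjusted p = 6.2e-08). Dusp16 (ENSMUSG00000030203, chromosome 6, 134715468 to 134792625, minus strand) stood at 457, 428 and 422 in the GFP dishes against 806, 805 and 833 in the NUR77 dishes. The dishes of each line lay close together, and the lines were well apart (log2 fold change 0.90, SE 0.06, limma adjusted p = 5.8e-10). In all 7 phosphatase genes the 3 NUR77 values were above the 3 GFP values, as in 40.3% of all tested genes (70.6% did not overlap in either direction).

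Spred1 (ENSMUSG00000027351, chromosome 2, 117121374 to 117182279, plus strand) encodes a membrane-bound Ras-ERK inhibitor that recruits neurofibromin, and it had the most reads of the 10 members. Its values were 4181, 4279 and 4253 normalized reads in the GFP dishes against 4887, 4232 and 4444 in the NUR77 dishes. The lines overlapped, and the highest value was that of NUR77 replicate 1. The log2 fold change was 0.09 (95% interval -0.02 to 0.20, limma adjusted p = 0.15), or 0.03 without that library (adjusted p = 0.55). The interval corresponds to a ratio between 0.984 and 1.15.

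Spry2 (ENSMUSG00000022114, chromosome 14, 105891947 to 105896819, minus strand) encodes a Sprouty protein that is phosphorylated after growth factor stimulation and binds the ubiquitin ligase CBL. Its values were 82.9, 104 and 75.8 normalized reads in the GFP dishes against 113, 98.2 and 94.7 in the NUR77 dishes, and the lines overlapped. The log2 fold change was 0.23 (95% interval -0.05 to 0.51, limma adjusted p = 0.14). Without GFP replicate 2, the highest GFP library, it was 0.36 and passed the threshold (adjusted p = 0.029). Spry1 (ENSMUSG00000037211, chromosome 3, 37639947 to 37644598, plus strand) had 0 reads in each of the 6 libraries. A limit of 3 reads over a line allows a level of up to 0.658 normalized reads with GFP and 0.787 with NUR77, for counting error only. The gene Gm42922, on the opposite strand, shares 710 exonic bases with Spry1.

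Since Dusp genes passed the test and Spred1 and Spry2 did not, the difference was examined as the log2 ratio of each phosphatase to Spred1 and to Spry2 within a library. These 14 pairs were chosen after the values were seen. In 11 of them the NUR77 ratios lay above the GFP ratios in all libraries, each with an exact two-sided permutation p of 0.1, which is the smallest that 3 libraries against 3 allow, and 0.127 after Benjamini-Hochberg adjustment over the 14. The log2 ratio of Dusp5 to Spred1 went from -5.09 ± 0.32 to -2.36 ± 0.19, and that of Dusp6 to Spred1 from -2.92 ± 0.11 to -1.72 ± 0.06 (SD, n = 3 per line). The ratios of Dusp2 to Spred1, Dusp2 to Spry2 and Dusp4 to Spry2 overlapped between the lines (exact permutation p = 0.2, 0.3 and 0.3). No pair passed the threshold, and with 3 libraries against 3 none could. Spred1 differed little between the lines (log2 fold change 0.09), so the ratios to it largely repeat the changes of the phosphatase genes. The pairs share their denominators and are not independent. For single tested genes, all NUR77 values lay above all GFP values in 40.3%.

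To compare levels between genes, normalized reads were divided by the exon length of each gene in kb. In the GFP line Spred1 stood highest at 625 ± 7.51 per kb, followed by Dusp4 at 413 ± 15.6, Dusp6 at 179 ± 15.8 and Dusp2 at 70.8 ± 10.2. Dusp16, Dusp5 and Spry2 came next at 55.9 ± 2.43, 50.6 ± 10.9 and 41.9 ± 6.91, where Dusp16 overlapped Dusp5 and Dusp5 overlapped Spry2 in their library values. Dusp1 at 26.7 ± 1.60 and Dusp10 at 8.98 ± 1.24 were lowest among the members with reads. In the NUR77 line Dusp4, at 634 ± 52.1 per kb, overlapped Spred1, at 666 ± 49.2. Dusp5 moved from the sixth to the fourth place, at 357 ± 42.3, above Dusp16 at 104 ± 2.01, Dusp2 at 99.6 ± 7.49 and Dusp1 at 88.8 ± 12.4, where neighbours again overlapped. Spry2 at 48.9 ± 4.76 and Dusp10 at 30.2 ± 3.72 followed. These orders rest on the annotated exons: with the length of the longest transcript, Dusp16 stood at 85.3 ± 3.71 with GFP and 160 ± 3.08 with NUR77. In the GFP line Dusp2 then overlapped Dusp16, Dusp16 no longer overlapped Dusp5, and Spry2 overlapped Dusp1. In the NUR77 line Spred1 and Dusp4, and Dusp16 and its next lower gene, no longer overlapped, and Dusp1 came just above Dusp2, which it overlapped.

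The summed level of the 7 phosphatase genes was 839, 802 and 775 normalized reads per kb in the GFP dishes against 1740, 1760 and 1750 in the NUR77 dishes, a ratio of the means of 2.17. Grouped by location or by preferred kinase, the nuclear phosphatases Dusp1, Dusp2, Dusp4 and Dusp5 summed to 561 ± 36.4 and 1180 ± 30.4 per kb. Cytoplasmic Dusp6 went from 179 to 436. Dusp10 and Dusp16, which prefer JNK and p38, together went from 64.8 ± 3.36 to 135 ± 1.88. The makeup of the sum differed between the lines. Dusp4 made up 51.3% ± 0.556 of it with GFP and 36.2% ± 2.84 with NUR77, while Dusp5 made up 6.26% ± 1.17 and 20.4% ± 2.44. Dusp6 held 22.3% ± 2.35 and 24.9% ± 1.33, and its library values overlapped between the lines.

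**Figure D2:**
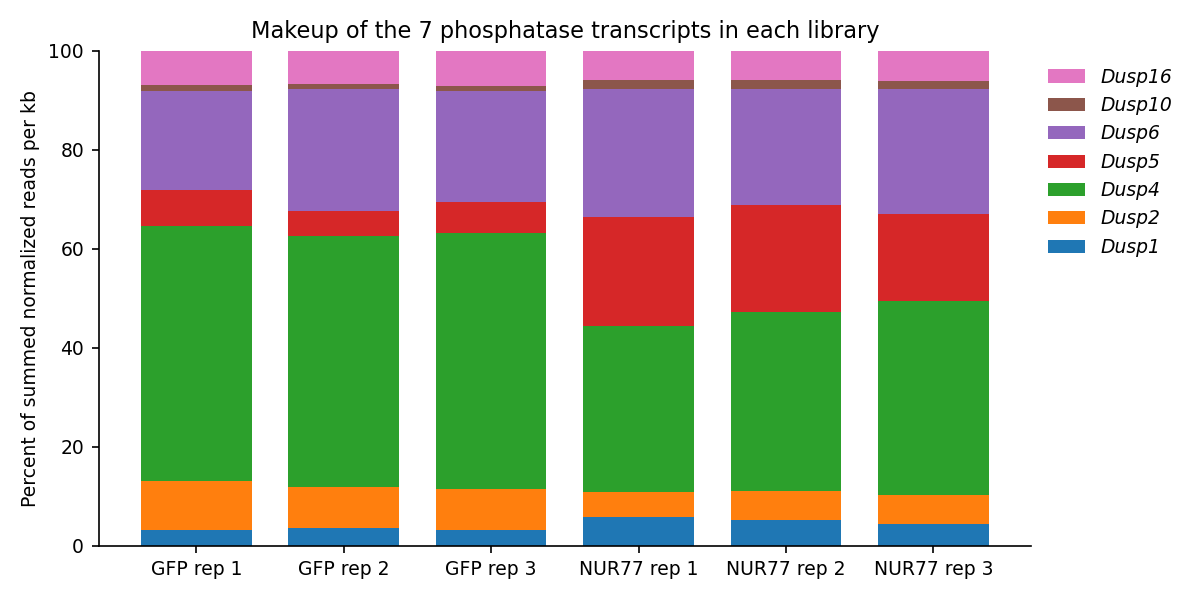
Share of each of the 7 phosphatase genes in their summed normalized reads per kb of exon, in percent, with 1 stacked bar per library. Dusp4 is the largest part in every library, and the Dusp5 part is 5.13% to 7.46% in the GFP dishes against 17.6% to 21.9% in the NUR77 dishes.

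Many immediate-early transcripts carry AU-rich elements that shorten their life, so the longest annotated 3′ UTR of each member was searched for the pentamer ATTTA and the nonamer TTATTTATT. Dusp2 held 6.88 pentamers per kb and Dusp1 5.80, against a median of 1.33 over 10628 tested genes with a 3′ UTR. Dusp1 was the only member with the nonamer, in 2 copies, and 8.38% of tested genes had at least 1. Dusp5 and Dusp6 held 0.90 and 0.84 pentamers per kb, below that median. Among the 7, Dusp2 had the highest density and the smallest rise, while Dusp1, next in density, rose 3.33-fold. Of the 10 members, 7 lay above the median density. The part of these elements in the rises was not tested.

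The relatives of the members outside the list went both ways. Of 15 other DUSP, STYX, Sprouty and Spred genes, 14 were in the table and 10 were tested. Of these 6 rose and 4 fell (median log2 fold change 0.35), against 38.4% and 28.3% of all tested genes. Dusp8, 1 of the 6, passed the filter only through the NUR77 line. Spred3, another Spred gene, stood at 82.9, 60.9 and 73.2 normalized reads in the GFP dishes against 259, 260 and 297 in the NUR77 dishes. The lines were well apart (log2 fold change 1.90, SE 0.12, limma adjusted p = 2.3e-10). Dusp14, a small phosphatase without the kinase-binding domain of the classical members, rose from 18.5 ± 2.63 to 85.1 ± 11.2 (limma adjusted p = 1.1e-08, log2 fold change 2.14). Dusp3, which encodes the small phosphatase VHR, fell from 2534 ± 6.19 to 1153 ± 63.3 (limma adjusted p = 6.3e-12, log2 fold change -1.14), and Dusp18 had a log2 fold change of -0.91 (adjusted p = 1.7e-07). Spry4, named after its values were seen, lay below the filter, with 11 reads over the GFP libraries and 65 over the NUR77 libraries, a depth-corrected ratio of 7.06 (exact 95% binomial interval 3.70 to 14.8, for counting error only). In the fit without a filter its adjusted p was 8.1e-08 (limma).

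**Figure D3:**
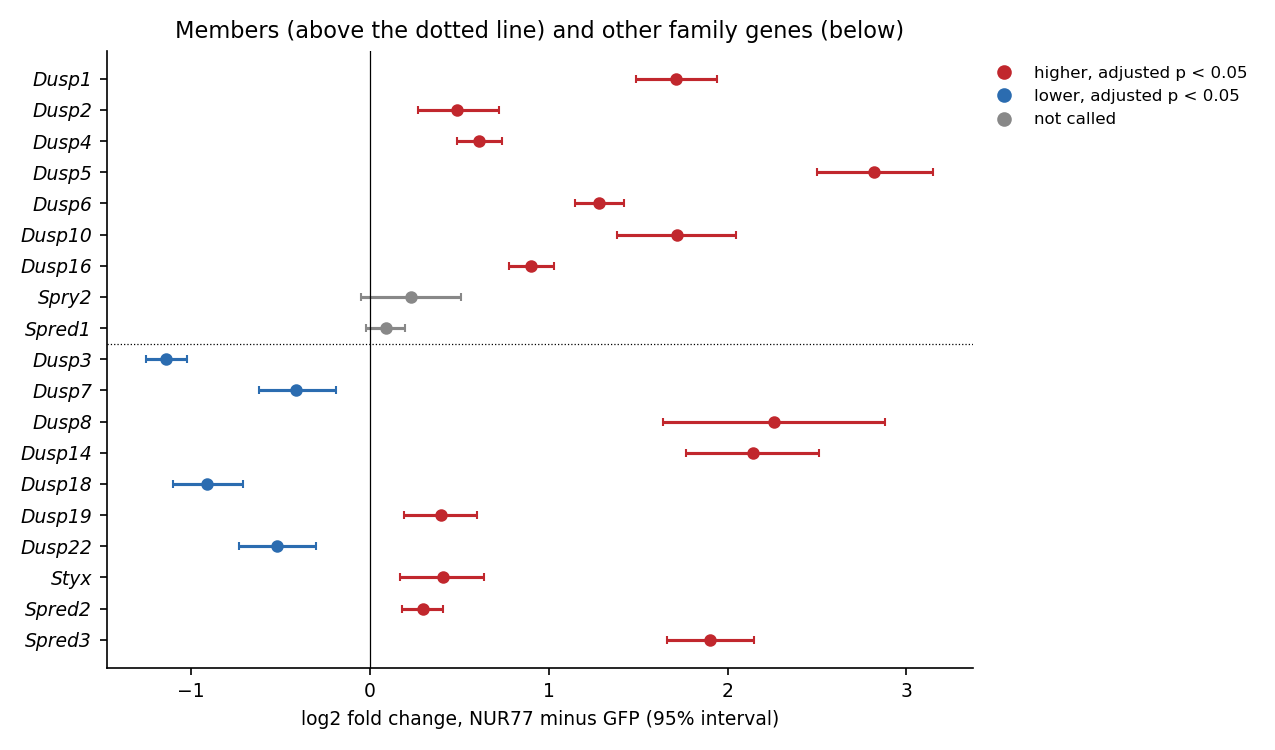
log2 fold change (NUR77 minus GFP) with its 95% limma interval for the 9 tested members, above the dotted line, and for the 10 tested relatives, below it; red marks genes called higher, blue lower and grey not called. The 7 Dusp members lie to the right of 0, and the relatives lie on both sides, from Dusp3 at -1.14 to Dusp8 at 2.26, which passed the filter only through the NUR77 line.

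Other phosphatases that act on MAP kinases rose in 5 of 8 tested cases and fell in 0 (limma, also 0 at an unadjusted p under 0.05; median log2 fold change 0.26). Beside these counts, 38.4% of all tested genes rose and 28.3% fell. Under TMM, upper-quartile and median-of-ratios scaling 5 of these phosphatase genes rose and 2 fell. Ptpn5, a tyrosine phosphatase of ERK and p38, had 6 reads over the GFP libraries and 257 over the NUR77 libraries, a depth-corrected ratio of 51.2 (exact 95% binomial interval 23.2 to 141, for counting error only), and passed the filter only through the NUR77 line. Ptpn2, a tyrosine phosphatase best known for acting on JAK kinases, rose from 407 ± 18.2 to 812 ± 38.1 (limma adjusted p = 3.3e-10, log2 fold change 0.99). Ppp2r5c, a regulatory subunit of protein phosphatase 2A, rose by a log2 fold change of 0.35 and the serine/threonine phosphatase gene Ppm1b by 0.27. Ptpn7, a leukocyte phosphatase of ERK and p38, stood at -0.11 (adjusted p = 0.11) and the catalytic subunit gene Ppp2cb at -0.08 (adjusted p = 0.22).

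Of 12 tested genes for proteins that bind or modify Sprouty and Spred, 7 rose and 3 fell (median log2 fold change 0.26), against 38.4% and 28.3% of all tested genes. By limma without a variance trend 6 of the 12 rose and 1 fell. The ubiquitin ligase gene Cblb rose from 218 ± 9.22 to 528 ± 10.7 normalized reads (limma adjusted p = 4.3e-11, log2 fold change 1.27), and Siah2, a ligase that targets Sprouty2, rose by 0.67. Tesk1, a kinase that binds Sprouty proteins, rose by 0.52 and Fbxo11, a ubiquitin ligase subunit gene, by 0.49. The 3 that fell were Ppp2r1a (-0.35, adjusted p = 4.6e-06), Prkcd (-0.17, adjusted p = 0.014) and Dyrk1a (-0.15, adjusted p = 0.037), named after their values were seen. Ppp2ca stood at 0.08 (adjusted p = 0.17) and Mknk1 at -0.21 (adjusted p = 0.10).

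Of 33 tested genes of the Ras-ERK cascade, 16 rose and 11 fell, with a median log2 fold change of -0.02. Over all tested genes 38.4% rose and 28.3% fell. Under TMM scaling 14 genes of the cascade rose and 14 fell. Rasgrp4 and Ksr1 passed the filter through 1 line only. Mapk3, which encodes ERK1, stood at -0.02 (adjusted p = 0.80) and Nras at -0.03 (adjusted p = 0.60). Map3k8, the kinase TPL2 that links Toll-like receptors to ERK in macrophages, rose from 54.4 ± 6.41 to 188 ± 22.1 normalized reads (limma adjusted p = 1.7e-09, log2 fold change 1.77). Ksr1, a scaffold of the ERK cascade, rose from 4.11 ± 1.83 to 74.3 ± 15.1 (adjusted p = 2.5e-09, log2 fold change 3.94) and passed the filter only through the NUR77 line. Rps6ka2, an ERK-activated kinase, rose by a log2 fold change of 1.74. Rasgrp3, a Ras activator, fell from 4091 ± 109 to 518 ± 34.7 (adjusted p = 9.7e-17, log2 fold change -2.98).

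In the p38 and JNK cascades 9 of 29 tested genes rose and 7 fell (median log2 fold change 0.09), or 8 and 9 under TMM scaling. As shares, 9 and 7 of 29 were below those of all tested genes, of which 38.4% rose and 28.3% fell. Mapk13, 1 of the 9, passed the filter only through the NUR77 line, with 2 reads over the GFP libraries and 132 over the NUR77 libraries. Mapk14, the gene of p38 alpha, stood at 0.09 (adjusted p = 0.19) and Map3k2 at 0.07 (adjusted p = 0.28). The genes of other p38 kinases rose: Mapk12 from 29.7 ± 3.17 to 244 ± 11.5 normalized reads (limma adjusted p = 1.1e-12, log2 fold change 3.00) and Mapk11 from 34.7 ± 4.57 to 202 ± 17.4 (adjusted p = 2.9e-11, log2 fold change 2.51). Map3k20, the stress kinase ZAK, rose by 0.96. Mapkapk3, a kinase activated by p38, fell from 62.0 ± 9.22 to 15.7 ± 3.43 (adjusted p = 2.6e-07, log2 fold change -1.92).

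Of 26 tested genes in a list of transcripts linked to ERK signalling, 18 rose and 3 fell (median log2 fold change 0.54). Over all tested genes 38.4% rose and 28.3% fell. Under TMM and upper-quartile scaling 18 genes of the list rose and 5 fell. Besides transcripts that depend on ERK activity in many cell types, the list held the transcription factor genes Elk1, Elk3, Elk4 and Srf. Elk1 (0.62) and Elk3 (1.93) were among the 18, and Elk4 (-0.26) among the 3. Epha2, a receptor tyrosine kinase gene, rose from 8.76 ± 0.574 to 218 ± 14.2 normalized reads (limma adjusted p = 9.4e-14, log2 fold change 4.49), and passed the filter only through the NUR77 line. Phlda1 rose by a log2 fold change of 4.08, the transcription factor gene Myc by 3.35 and Fosl1, a subunit of AP-1, by 2.35. Ccnd1, the cyclin D1 gene, stood at -0.06 (adjusted p = 0.31) and Etv1 at 0.09 (adjusted p = 0.15). The 3 that fell, named after their values were seen, were Egr1 (-1.43, adjusted p = 1e-12), Egr3 (-0.84, adjusted p = 0.025) and Elk4 (-0.26, adjusted p = 0.00054). Egr3 passed the filter only through the GFP line. Egr1, a classical immediate-early gene of ERK signalling, thus went from 2084 ± 95.7 to 773 ± 44.7 normalized reads while the phosphatase genes rose.

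Growth factor ligands and receptors fell in 8 of 11 tested cases and rose in 2 (median log2 fold change -0.77), against 28.3% and 38.4% of all tested genes. The other 14 genes of the list were below the filter. Csf1, the macrophage growth factor gene, fell from 141 ± 1.76 to 18.9 ± 3.66 normalized reads (limma adjusted p = 6.4e-11, log2 fold change -2.85). Nrp1, a co-receptor, fell by 2.04 on the log2 scale, Kitl by 2.00 and Hbegf by 1.40. Vegfa stood at -0.13 (adjusted p = 0.14). Flt1, 1 of the 2 that rose, passed the filter only through the NUR77 line. Without a filter 5 genes of this list rose and 9 fell of 21 with any read, and the median was 0.01.

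**Figure D4:**
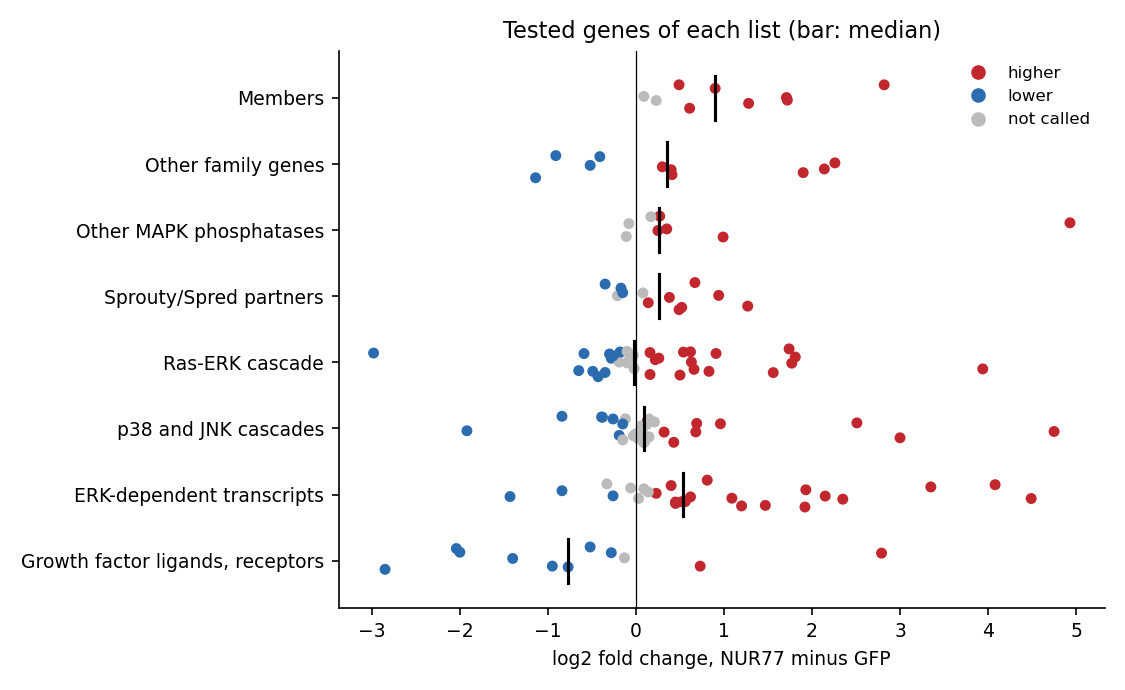
log2 fold change (NUR77 minus GFP) of every tested gene in the members and the 7 other lists, with 1 point per gene spread vertically for legibility; red is called higher, blue lower, grey not called, and the black bar is the median. The members' median lies at 0.90 and that of the growth factor genes at -0.77. The list labelled ERK-dependent transcripts, which also holds Elk1, Elk3, Elk4 and Srf, has its median at 0.54.

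**Figure D5:**
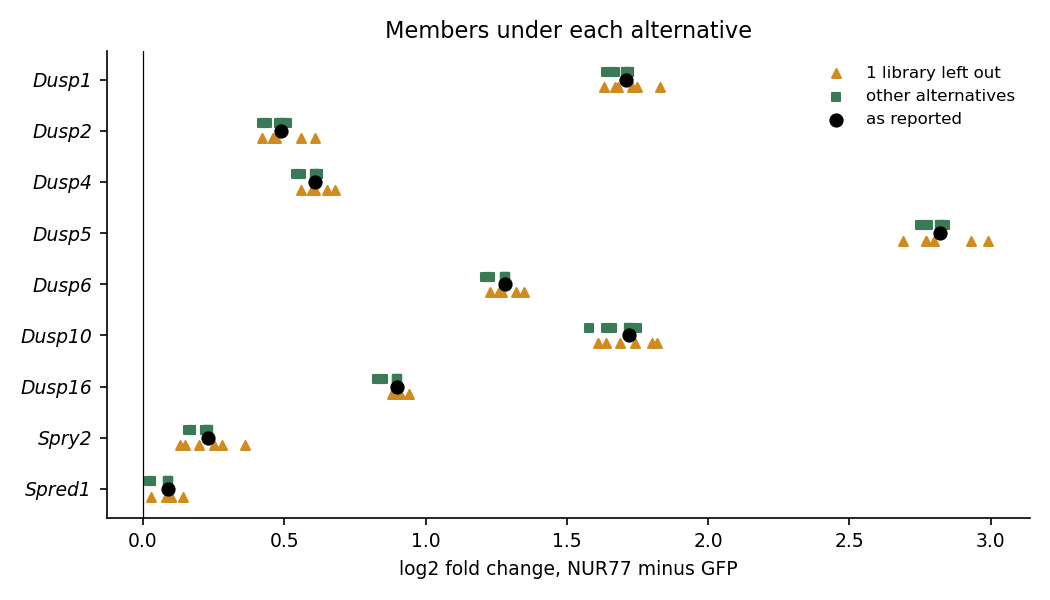
log2 fold change (NUR77 minus GFP) of the 9 tested members as reported (black) and under 16 alternatives (triangles: 1 library left out; squares: other scaling, filter, pseudocount, variance model or block). The Dusp genes keep to the right of 0, with Dusp2 between 0.42 and 0.61, and Spred1 stays between 0.02 and 0.14.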

How the data were processed

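The authors deposited log2 values for 6 libraries, 1 column each and not pooled. TopHat2 2.1, HTSeq, DESeq2 and the mm10 build are named, per the submitters' processing notes, without roles, strand setting or annotation. By the values themselves, each is the log2 of reads scaled to 10000000 per library, plus 1, and 100% gave whole reads within 0.1 read. Equal totals let a few abundant genes shift all others slightly.

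GENCODE vM21 (mm10) named 22872 of 23154 identifiers and gave coordinates, exon lengths and 3′ UTRs. Promoters are RefSeq's (GRCm38.p6). limma 3.58.1 in R 4.3.3, with trend and robust moderation, was fitted to log2(normalized reads + 1), which understates changes of low genes; libraries were grouped by their titles, without covariates. The fit was tested on simulated data in which far fewer genes changed than were called here. All adjusted p-values are from it unless stated, and errors of means are SD over 3 libraries. No replicates were duplicates (chi-square per degree of freedom at least 2.39). Members and lists were chosen with earlier results of these data known. Named beside the members were up to 4 called genes per list (largest change, mean of 50 or more in the higher line, no overlap). Up to 2 genes per list that were not called were also named (highest mean). Alternatives covered pseudocount, filter, scaling, variance model, voom, block and each library left out. 1 marker list is not reported in full here.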

Additional observations from a re-analysis of the deposited data

How the results depend on the processing

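Under the 16 alternatives run, the 7 phosphatase genes kept their direction and stayed past the threshold, and the number of members called was 7 to 8. Spry2 ranged from 0.13 to 0.36 when 1 library was left out and passed only without GFP replicate 2 (0.36, limma adjusted p = 0.029; 0.029 to 0.45 over all alternatives). Spred1 was called under none of them (adjusted p 0.054 to 0.80). The call count over all tested genes was 6680 to 8429, against 7475 as reported. TMM scaling moved the median log2 fold change of all tested genes from 0.06 to -0.02, and 3606 genes then rose and 3838 fell. Whether the replicate numbers pair the dishes could not be settled with 3 dishes per line. Deviations of same-numbered libraries correlated at 0.002, 0.114 and 0.045 across genes, and those of differently numbered libraries at -0.109 to 0.073. Not every library correlated best with its own number. With the replicate number as a block 7585 genes and 7 members were called, and no member's call changed. Count models by edgeR and DESeq2 had been planned and were not run. The deposited unit is log2, but whole reads could be recovered, and limma-voom was run on those reads instead. Depth limits Spry1, Spry4 and other genes with few reads.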

Other observations

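3 ligand genes below the filter are named here after their values were seen. Csf2, the gene of the growth factor GM-CSF, had 0 reads in every GFP library and 20, 21 and 5 in the NUR77 libraries. Areg, which encodes the EGF receptor ligand amphiregulin, had 0 reads in every GFP library and 5, 8 and 1 with NUR77. Hgf, the gene of hepatocyte growth factor, went from 25 reads with GFP to 1 with NUR77, a depth-corrected ratio of 0.0478 (exact 95% binomial interval 0.00116 to 0.292, for counting error only).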
